A study of Mus musculus with 9 samples.

Results

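The alpha chain of the T cell receptor is built in the thymus by joining 1 of many V segments to 1 of many J segments upstream of the constant gene Trac. The rows described here are the 188 of 23415 gene rows in the deposited table whose symbol is a Trav or Traj segment, 128 V and 60 J. They were chosen by symbol alone, without regard to their values. For each library, the share of a segment is its TPM (a length-corrected abundance scaled to the same total in each library) divided by the total of all V rows or all J rows.

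The 9 libraries came from CD4+ T cells sorted from the colon lamina propria of Rag1-/- mice with T cell transfer colitis, taken at peak disease. The knockout group, 4 libraries, had received naive CD4+ CD25- CD45RBhigh T cells from CD160 knockout donors, and the control group, 5 libraries, the same kind of cells from wildtype littermates. Rag1-/- recipients make no T or B cells of their own, so rearranged alpha chains come from the transferred cells. SMART-Seq2 libraries were made from 5000 sorted cells and sequenced with 2 reads of 38 bases per pair, and the labels do not say which recipients gave which library. The spread behind every p-value here is therefore that among libraries, which may be partly technical.

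A rearranged alpha gene is unlike most transcripts in that each T cell clone carries its own V and J pair. The V segment encodes most of the variable domain, whereas the J segment completes the most variable loop, CDR3, and leads into the constant region. Clones that expand after transfer raise the share of their own V and J segments in a bulk sample. In bulk RNA, fewer cells of a type and less RNA per cell cannot be told apart. A few alpha chains are invariant: Trav11 joined to Traj18 marks invariant natural killer T cells, and Trav1 joined to Traj33 marks mucosal-associated invariant T cells.

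All segments lie on the plus strand of chromosome 14 (GRCm38). The V rows span chr14:52427928-53977678, from Trav1 to Trav23, and the J rows span chr14:54155005-54218842, from Traj61 to Traj1, upstream of Trac at chr14:54220521-54224206. RefSeq calls 16 of the V rows and 9 of the J rows pseudogenes. The reference J sequences below, from GENCODE M21, are those that held the largest J share in some library, followed by Traj17, whose groups did not overlap without control 1, and Traj33. Capitals mark the conserved phenylalanine and glycine codons at which the J segment enters the framework (the F-G-X-G motif, searched on the coding strand only and in any frame). The motif is in 43 of the 60 J rows and not in Traj33, which is therefore in lower case throughout.
Traj32: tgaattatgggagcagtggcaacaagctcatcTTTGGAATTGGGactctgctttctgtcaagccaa
Traj58: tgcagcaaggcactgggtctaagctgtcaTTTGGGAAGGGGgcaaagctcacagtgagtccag
Traj40: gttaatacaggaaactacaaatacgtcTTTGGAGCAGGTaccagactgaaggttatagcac
Traj27: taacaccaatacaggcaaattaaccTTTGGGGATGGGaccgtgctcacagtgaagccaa
Traj37: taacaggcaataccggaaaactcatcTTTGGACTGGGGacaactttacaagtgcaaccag
Traj23: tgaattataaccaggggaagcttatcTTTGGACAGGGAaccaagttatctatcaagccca
Traj18: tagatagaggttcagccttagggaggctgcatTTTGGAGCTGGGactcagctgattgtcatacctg
Traj39: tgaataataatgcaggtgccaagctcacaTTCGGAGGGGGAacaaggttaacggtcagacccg
Traj17: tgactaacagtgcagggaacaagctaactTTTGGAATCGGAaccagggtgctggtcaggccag
Traj33: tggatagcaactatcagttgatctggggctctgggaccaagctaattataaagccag

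The last 60 bases of the V segments that led a library follow, with the codon of the conserved cysteine before the junction in capitals. These ends are what is joined to a J segment, and those of Trav3-3 and Trav3d-3, of the same family, are nearly alike. Likeness between families was not measured on these ends. Trav3-3 lies here at chr14:53666447-53666506 and Trav3d-3 at chr14:52972979-52973038.
Trav7-4: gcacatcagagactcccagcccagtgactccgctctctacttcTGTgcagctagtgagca
Trav8-2: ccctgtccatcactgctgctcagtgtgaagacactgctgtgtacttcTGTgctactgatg
Trav7n-6: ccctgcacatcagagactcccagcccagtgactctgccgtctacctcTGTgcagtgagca
Trav3d-3: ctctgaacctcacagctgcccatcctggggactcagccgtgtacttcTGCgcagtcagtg
Trav3-3: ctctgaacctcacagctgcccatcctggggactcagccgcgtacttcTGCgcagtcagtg
Trav13-1: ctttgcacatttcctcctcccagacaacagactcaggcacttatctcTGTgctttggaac
Trav9-4: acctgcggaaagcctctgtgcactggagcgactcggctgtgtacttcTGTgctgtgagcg
Trav14-1: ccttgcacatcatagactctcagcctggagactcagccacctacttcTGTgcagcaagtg

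The V part of the locus holds a large duplication, and segments with a d or an n in their name are copies of segments without a letter. The table has 55 V rows without a letter, 39 d rows and 34 n rows. Compared over the last 270 bases of their transcripts, 40 of the 128 V rows had another V row with no difference from it, and 100 had one within 10 differences. The rows within 0 differences of another carried 27.1% of the V total on average over the 9 libraries. Windows of 120 bases show this for the copies that the results turn on, with every base that differs among the copies in capitals.
Trav3-3: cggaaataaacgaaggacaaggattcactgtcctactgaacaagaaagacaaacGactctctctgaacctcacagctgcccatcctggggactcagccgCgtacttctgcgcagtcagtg
Trav3d-3: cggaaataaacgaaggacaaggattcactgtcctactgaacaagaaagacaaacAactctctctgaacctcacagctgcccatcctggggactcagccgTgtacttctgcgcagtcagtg
Trav3n-3: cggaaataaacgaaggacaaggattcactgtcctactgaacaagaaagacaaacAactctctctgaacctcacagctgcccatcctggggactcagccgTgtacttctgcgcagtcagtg
Trav12-3: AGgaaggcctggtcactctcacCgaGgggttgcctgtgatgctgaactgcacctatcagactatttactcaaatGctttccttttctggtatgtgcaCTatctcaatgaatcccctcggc
Trav12d-3: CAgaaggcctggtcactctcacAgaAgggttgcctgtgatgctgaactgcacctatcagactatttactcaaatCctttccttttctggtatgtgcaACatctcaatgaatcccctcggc
Trav12n-3: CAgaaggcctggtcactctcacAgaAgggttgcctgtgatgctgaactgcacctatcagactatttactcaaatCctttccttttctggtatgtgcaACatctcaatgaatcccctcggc
In both sets the d and n copies carried the same letters while the copy without a letter stood apart, with 4 differing positions in 270 for Trav3-3 and 8 for Trav12-3. Trav3d-3 and Trav3n-3 were listed with the same TPM in all 9 libraries, as were Trav12d-1 and Trav12n-1, Trav7d-5 and Trav7n-5, and Trav11 and Trav11d. Trav12d-3 and Trav12n-3 were not: Trav12d-3 stood at no more than 0.66 TPM in the knockout libraries and at 0 in every control library, while Trav12n-3 reached 55.4 TPM. For the rows named below that have a copy with no difference over the 270 bases, the sum with that copy is given too.

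Sorted cells carried their defining markers. The summed TPM of 8 CD4 T cell markers was 6267 to 7496 in the knockout libraries and 7278 to 8303 in controls 2 to 5, and 2523 in control 1. Control 1 listed 7308 genes at 1 TPM or more, against 11088 to 11711 in the other 8 libraries, so results are given with and without it. Macrophage markers, 7 genes, summed to 8207 to 14653 TPM in the knockout libraries, 973 in control 1 and 2266 to 9089 in controls 2 to 5. Markers of CD8 T cells summed to 5.57 to 87.4 TPM in all libraries and those of B cells to at most 12.9 TPM. Markers of gamma delta T cells, 6 genes, summed to 290 to 424 TPM in the knockout libraries, 32.3 in control 1 and 349 to 1359 in controls 2 to 5, nearly all of it from the gamma constant genes, with Trdc at 0 to 11.6 TPM. Of these, Tcrg-C1 was 50.6 to 63.6 TPM in the knockout libraries, 71.3 to 275.5 TPM in controls 2 to 5 and 14.1 TPM in control 1. Without control 1, 7.02% of all genes likewise had groups that did not overlap. Tcrg-C2 was 205 to 337.5 TPM in the knockout libraries and 244 to 913 TPM in controls 2 to 5. Tcrg-C4 was 19.5 to 31.8 and 24.0 to 177.5 TPM. Both overlapped between these libraries, as did Trdc, Trdv4 and Sox13. NK cell markers summed to 0.88 to 41.4 TPM, highest in control 3. Their part in the segment values was not tested.

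V segments were detected broadly in every library. Of the 128 V rows, 116 were above 0 in at least 1 library, 60 in all 9, and 12 in none, and 7 of the 16 V pseudogenes were above 0 somewhere. A single library listed 92 to 100 V rows above 0 in the knockout group and 95 to 101 in controls 2 to 5, with 78 in control 1. The V total was 1321, 1775, 1263 and 1246 TPM in knockouts 1 to 4, and 380, 1441, 1623, 1672 and 1744 TPM in controls 1 to 5. Set against Trac, the constant gene of the same transcript, the V total was 1.67 ± 0.07 (SD, n = 4) times Trac in the knockout group and 1.68 ± 0.10 (SD, n = 4) times Trac in controls 2 to 5. The groups overlapped on this ratio, and control 1 stood above all others at 2.20, with a Trac of 173 TPM where the other libraries had 743 to 1120 TPM.

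Most libraries had a leading V segment of their own. Trav7-4 led knockout 1 with 6.92% of the V total, Trav8-2 led knockout 2 with 4.88%, and Trav7n-6 led knockout 3 with 7.40%. In knockout 4 Trav3d-3 and Trav3n-3 led with 10.9% each, so that their shared sequence took 271 TPM there against 24.9 to 40.9 TPM in the other knockout libraries. Among the controls, Trav3-3 led control 1 with 16.7% and control 4 with 7.17%, Trav13-1 led control 2 with 9.76%, and Trav9-4 led control 3 with 15.8%. The largest share of all was that of Trav14-1 in control 5, at 25.7%. Apart from Trav3-3, no V row led more than 1 library.

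**Figure D1:**
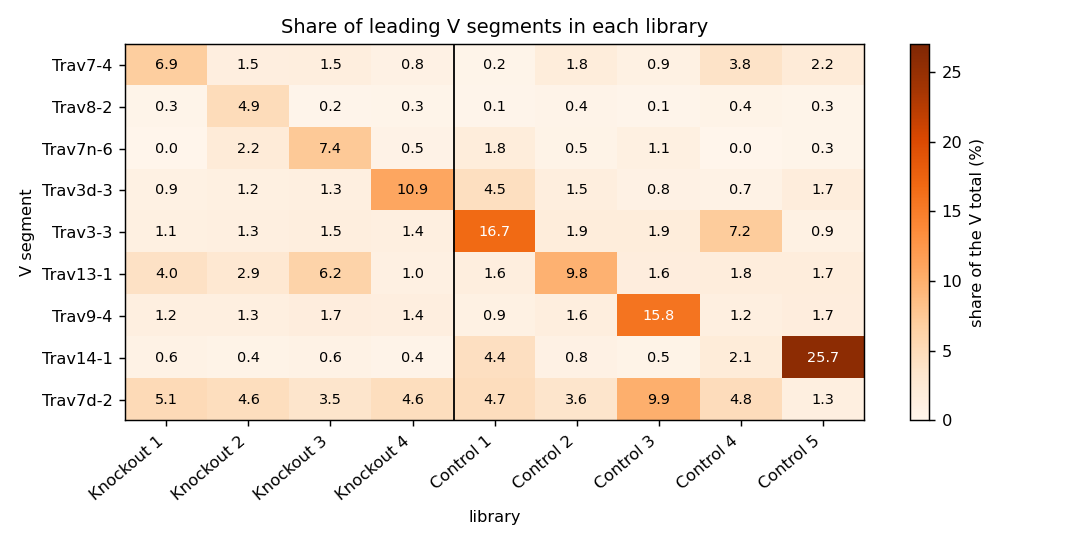
Share of the V total, in percent, taken by each V segment that led at least 1 library and by Trav7d-2 (rows), in each library (columns, knockout left of the line); darker cells are larger shares. Each leading segment peaks in 1 library, or in 2 for Trav3-3, with Trav14-1 reaching 25.7% in control 5.

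Most of these leading segments held far less of the V total elsewhere, though not all: Trav13-1, which led control 2, held 6.22% in knockout 3 and 4.04% in knockout 1, and Trav3d-3 held 4.47% in control 1. Trav14-1 stood at 447.6 TPM in control 5 and at 5.21 to 35.3 TPM in the other 8 libraries, 40.3 times the median of their shares. Trav8-2 stood at 86.5 TPM in knockout 2 and at 0.48 to 7.36 TPM elsewhere, 18.3 times the median share of the others. Trav9-4 stood at 256 TPM in control 3 and at 3.59 to 28.8 TPM elsewhere, 11.6 times that median. Such peaks of a single library were found in both groups.

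A few V rows had a high mean share without leading any library. Trav7d-2 had the highest mean share, 4.67%, and lay between 3.54% and 5.07% in the knockout libraries. In the controls it was 4.72%, 3.58%, 9.93%, 4.77% and 1.29%. Trav6-6 stood at 2.26% to 4.25% in the knockout libraries and 1.16% to 5.59% in the controls, and Trav4n-4 at 2.09% to 3.53% and 0.59% to 4.77%, lowest in control 1. Summed with copies that show no difference, Trav6-6 and Trav6d-6 came to 35.1 to 56.2 TPM in the knockout libraries and 11.8 to 92.6 TPM in the controls, and Trav4n-4 and Trav4d-4 to 32.5 to 44.6 and 2.25 to 77.3 TPM. Knockout values lay inside the control range for all 3 segments.

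Summed by family number, usage was more alike between libraries than for single rows. The 15 Trav6 rows together held 10.4% to 13.2% of the V total in every library. The 9 Trav14 rows held 9.06% to 16.5% in 8 libraries and 29.9% in control 5, and the 8 Trav3 rows 3.51% to 9.10% apart from knockout 4 at 24.0% and control 1 at 26.0%. The 13 Trav7 rows held 16.1% ± 3.05 (SD, n = 4) in the knockout group and 12.3% ± 2.99 (SD, n = 5) in the control group, with overlapping values. The 10 V rows shared with the delta chain, whose names also carry a dv number, held 3.82% to 9.64%, with no order between the groups.

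Evenness of V usage, the Shannon index divided by its largest possible value, ran from 0 for 1 segment to 1 for equal shares. It was 0.819, 0.850, 0.835 and 0.782 in knockouts 1 to 4, and 0.755, 0.839, 0.761, 0.819 and 0.727 in controls 1 to 5. The means were 0.821 ± 0.029 (SD, n = 4) and 0.780 ± 0.047 (SD, n = 5), and 0.786 ± 0.051 (SD, n = 4) in controls 2 to 5. The groups overlapped: controls 2 and 4 lay within the knockout range, above knockout 4.

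Measures of dominance likewise put knockout 2 first as the most diverse library and control 5 last. The effective number of V segments, the inverse of the summed squared shares, was 38.5, 47.0, 39.8 and 25.0 in the knockout libraries and 21.3, 38.3, 20.1, 37.9 and 12.1 in the controls. The largest V share was 7.52% ± 2.50 (SD, n = 4) in the knockout group, 15.0% ± 7.18 (SD, n = 5) in the control group and 14.6% ± 8.22 (SD, n = 4) without control 1. Trav3d-3 and Trav3n-3 count as separate rows here: with identical copies summed the means were 10.2% in the knockout group and 15.0% in the control group, and with families summed 19.2% and 21.8%. Between 10 and 18 segments made up 50% of the V total in the knockout libraries, and between 7 and 17 in the controls. All of these ranges overlapped. They are summaries over the segments and were not tested.

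**Figure D2:**
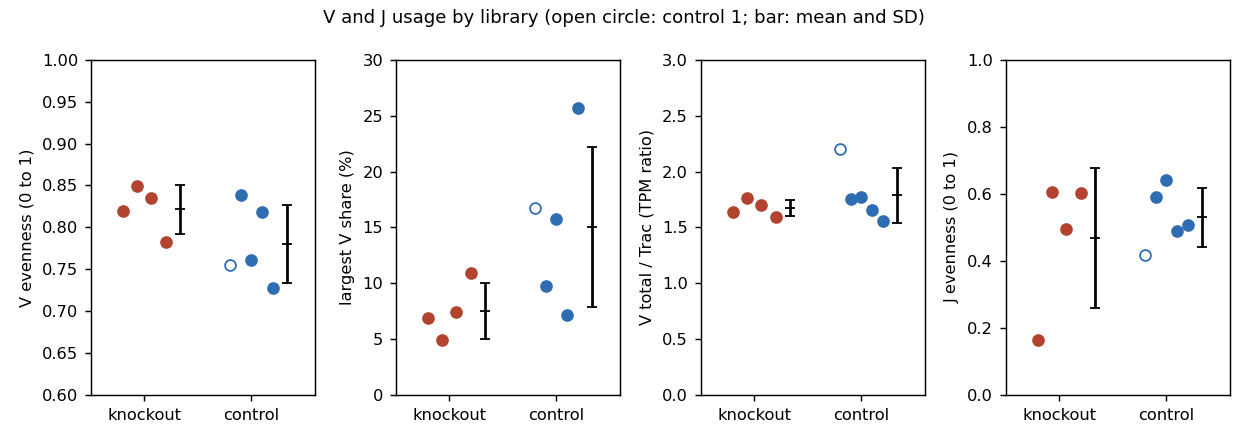
Evenness of V usage, largest V share in percent, V total divided by Trac TPM, and evenness of J usage, 1 point per library with the group mean and SD as bars (red knockout, blue control, open circle control 1). Knockout and control points overlap in each panel; control 1 has the highest V total to Trac ratio, 2.20, and knockout 1 the lowest J evenness, 0.164.

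Pairs of libraries shared about as much V usage between the groups as within the control group. The overlap of a pair, the sum over segments of the smaller share, had a median of 63.4% (56.9% to 68.5%, 6 pairs) within the knockout group and 51.2% (43.6% to 64.5%, 10 pairs) within the control group. Between the groups it was 55.9% (46.4% to 70.5%, 20 pairs). Without control 1 the medians were 53.0% within the control group and 56.3% between the groups. The 8 pairs with control 1 lay between 44.2% and 55.8%.

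Along the locus, the n copies held more of the V total on average in the knockout group. Their share was 19.4%, 26.6%, 32.0% and 28.9% in knockouts 1 to 4, and 13.8%, 19.1%, 21.9%, 14.3% and 15.6% in controls 1 to 5. The means were 26.8% ± 5.37 (SD, n = 4) and 17.0% ± 3.46 (SD, n = 5), and 17.8% ± 3.44 (SD, n = 4) in controls 2 to 5. Knockouts 2, 3 and 4 lay above every control and knockout 1 between controls 2 and 3, so the groups overlapped by 1 library. In knockout 4, Trav3n-3 alone made up 10.9% of the V total, at the same TPM as Trav3d-3, which has no difference from it. The leading V row of every control, and of knockouts 1 and 2, carried no letter. The part of these single leading rows in the n share was not tested. Grouping by copy was chosen after its values were seen and is given without a test.

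The rows without a letter held less on average. They made up 47.9% ± 7.73 (SD, n = 4) of the V total in the knockout group and 57.7% ± 1.98 (SD, n = 5) in the control group, with knockout 1 at 57.9%, inside the control range of 54.8% to 59.5%. The d copies held 25.4% ± 4.97 (SD, n = 4) and 25.4% ± 1.74 (SD, n = 5). Counted by row, the n rows had no common direction: of 28 n rows above 0, 14 had a higher mean share in the knockout group and 14 a lower one. Such a count weighs rows near 0 like any other and need not follow the summed share. Among rows without a letter, 29 were higher and 24 lower in the knockout group, although their summed share was lower there. The count thus cannot say whether the n rows moved as a class. Because d and n copies are often the same in sequence, how their TPM was divided between them bears on these shares. The middle 43 V rows of the locus, which hold the n copies, took 23.2%, 30.3%, 35.1% and 35.0% in the knockout libraries and 17.3%, 22.2%, 23.6%, 17.8% and 18.3% in the controls. Macrophage marker sums were higher in knockouts 1, 3 and 4 than in every control, and their part in the n share was not tested.

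**Figure D3:**
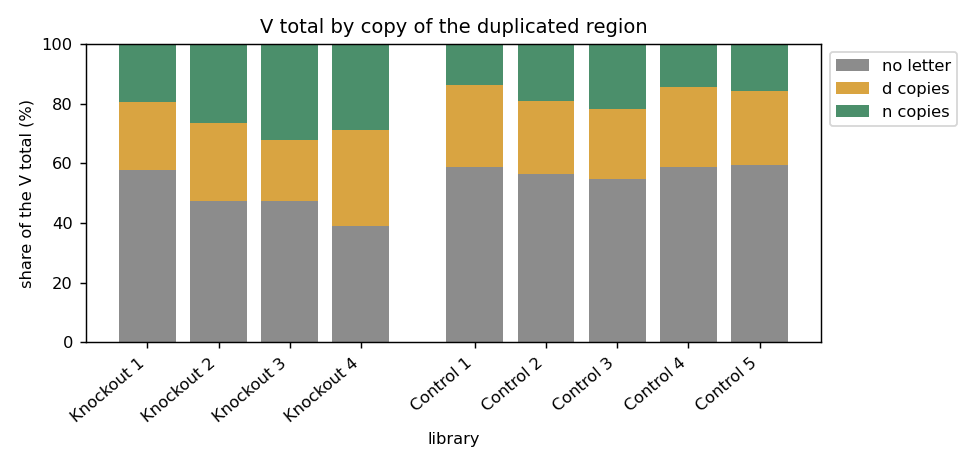
Share of the V total, in percent, held by V rows without a letter, by d copies and by n copies, as stacked bars for each library. The n part is 19.4% to 32.0% in the knockout libraries and 13.8% to 21.9% in the control libraries.

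Single segments were compared by limma on log2(TPM + 1) across all genes at 1 TPM or more in at least 4 libraries, with Benjamini-Hochberg adjustment over all of them. No segment was called at an adjusted p under 0.05 in either fit. With all 9 libraries, 106 segments were tested, 98 V and 8 J, and 2 of 11495 genes (0.0174%) were called. At an unadjusted p under 0.05 there were 6 segments, 3 higher and 3 lower in the knockout group, 5.66% of those tested against 6.39% of all genes. None of the segments had groups that did not overlap, which 4.93% of all genes had. The median log2 difference was 0.29 over the segments and 0.46 over all genes, and median-of-ratios scaling moved these to -0.15 and 0.02.

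Without control 1, 105 segments were tested and 0 called by limma, with 3 of 11457 genes (0.0262%) called. At an unadjusted p under 0.05 there were 7 segments, 1 higher and 6 lower, 6.67% against 12.8% of all genes. The groups did not overlap for Trav1 and Traj17, 1.9% of the segments tested, while this held for 7.02% of all genes. The median log2 difference was -0.09 over the segments and -0.01 over all genes. Counted as V and J together, the segments stood at or below the background of the table on each count. The 8 J rows that passed the filter, of 60, did not: 12.5% with all libraries and 25% without control 1 had an unadjusted p under 0.05, and 12.5% did not overlap without control 1. Their log2 differences were negative for 7 of 8 and 8 of 8 rows, with medians of -1.28 and -1.76. These 8 rows were kept for being above the filter in at least 4 libraries and are not all J rows. A row can pass mainly through the controls: Traj39 had knockout 2 as its only knockout library above 0. Traj32, Traj58 and Traj40, which led knockouts 1 to 3, were above 0 in 3 libraries each and were not tested. The signs and shares of the 8 rows may thus reflect which rows passed, and do not describe J usage as a whole.

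Trav1, the V segment of the mucosal-associated invariant chain and the first of the locus (chr14:52427928-52428876), was 10.7, 9.57, 3.22 and 9.74 TPM in knockouts 1 to 4. It was 0.49, 16.5, 19.1, 31.8 and 21.3 TPM in controls 1 to 5. Every knockout library was below controls 2 to 5 and above control 1. Without control 1 the log2 difference was -1.38 (SE 0.34), with a limma adjusted p of 0.159 and an exact two-sided permutation p of 0.0286, the smallest that 4 against 4 libraries can give. With all 9 libraries it was -0.60 (SE 0.83), with a limma adjusted p of 0.745.

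Trav12n-3 (chr14:53240745-53241244) had the smallest unadjusted p among the segments with a positive difference without control 1. It stood at 45.3, 47.3, 55.4 and 30.3 TPM in the knockout libraries and at 1.65, 11.1, 15.2, 18.3 and 34.9 TPM in the controls. Only control 5 reached the knockout range, above knockout 4. The log2 difference was 1.79 (SE 0.67, limma adjusted p 0.674) with all libraries and 1.22 (SE 0.32, limma adjusted p 0.18) without control 1. Summed with Trav12d-3, which has the same bases in the windows above, it was 44.7 ± 10.2 TPM (SD, n = 4) in the knockout group and 16.2 ± 12.2 TPM (SD, n = 5) in the control group, so the d copy added little.

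Trav9d-1, Trav13n-1 and Trav12n-2 also had a small unadjusted p with all libraries. Trav9d-1 was 2.81 to 4.51 TPM in the knockout libraries and 11.4, 24.4, 18.9, 83.9 and 3.17 TPM in the controls, a log2 difference of -2.05 (SE 0.72, limma adjusted p 0.657). Control 5 lay inside the knockout range. Trav13n-1 was 9.17, 7.31, 28.3 and 6.83 TPM in the knockout libraries and 1.46, 1.37, 0, 10.5 and 5.67 TPM in the controls, a log2 difference of 1.80 (SE 0.70, limma adjusted p 0.682). Control 4 lay inside the knockout range.

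Trav12n-2 is a segment for which the copy mattered. It was listed at 0, 1.70, 0 and 0 TPM in the knockout libraries and at 1.65, 6.21, 2.58, 0 and 2.53 TPM in the controls, a log2 difference of -1.22 (SE 0.52, limma adjusted p 0.729). Summed with Trav12d-2, which has no difference from it over the last 270 bases, the level was 22.2 ± 5.56 TPM (SD, n = 4) in the knockout group and 29.4 ± 19.0 TPM (SD, n = 5) in the control group, and the groups overlapped. Trav13-2, without a letter, was 34.2, 6.80, 15.2 and 7.12 TPM in the knockout libraries and 11.9, 22.5, 36.3, 47.0 and 48.8 TPM in the controls. Its log2 difference without control 1 was -1.47 (SE 0.48, limma adjusted p 0.246), and knockout 1 lay inside the control range. With all 9 libraries that difference was -1.15 (SE 0.59, limma adjusted p 0.745).

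**Figure D4:**
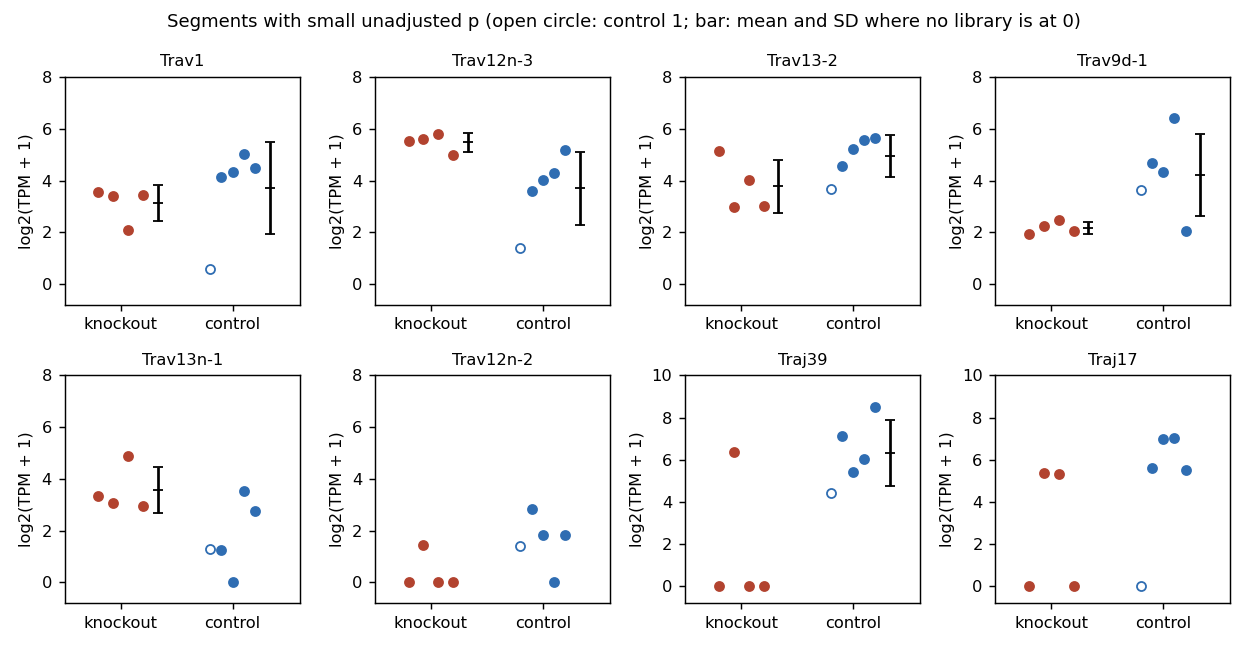
Level, as log2(TPM + 1), of the 6 V segments that are among the 4 V rows with the smallest unadjusted p in either fit, and of Traj39 and Traj17, 1 point per library (red knockout, blue control, open circle control 1), with group mean and SD where no library is at 0. The knockout points of Trav1 lie below those of controls 2 to 5, and Traj39 is at 0 in 3 knockout libraries and in no control.

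J segments were far sparser than V segments. Of the 60 J rows, 39 were above 0 in at least 1 library, 15 of them in a single library, 21 in none, and no J row in all 9. Libraries listed 2, 14, 12 and 14 J rows above 0 in knockouts 1 to 4 and 7, 14, 17, 8 and 11 in controls 1 to 5. The J total was 353, 1332, 1234 and 1219 TPM in the knockout libraries and 353, 1375, 1769, 749 and 1132 TPM in the controls. Knockout 1 thus had a J total like that of control 1, although its V total was like those of the other knockout libraries.

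Detection of J rows went with their reference length. Of the 15 rows of 57 bases or less, only Traj21, of 57 bases, was above 0, in 1 library, or 0.741% of 135 values. Of the 45 rows of 58 to 72 bases, 38 were above 0 somewhere and 24.2% of 405 values were. Traj33, of 57 bases, was listed at 0 in every library, and so the invariant pair with Trav1 could not be followed.

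J values also came in whole steps. The step was fitted jointly over libraries and reference lengths, as the product of a value for the library and a value for the length. It was taken from the smallest values, divided so as to leave the fewest values off a whole multiple. The number of whole multiples therefore describes the fit and is no test of it. With this step, 96 of the 99 values above 0 were whole multiples, within 3%, of a step, and the 3 others all belonged to Traj46. Traj46 was entered at its RefSeq length of 61 bases, and its GENCODE sequence has 63. In knockout 3 it was listed at 49.6 TPM, the same as Traj23 and Traj26, which have 60 bases. The misfit may thus lie in the length entered, which was not tested. Of the 99 values, 56 were at 1 step and 18 at 2 steps, and the largest, Traj40 in knockout 3, was at 9. For a J row of 63 bases a step was worth 40.9, 38.5 and 49.6 TPM in knockouts 2 to 4 and 20.6, 47.0, 41.7, 64.2 and 44.6 TPM in controls 1 to 5. Knockout 1 had only 2 values, so its step, taken as 88.7 TPM, is uncertain. All J values of a library together came to 5, 31, 26 and 21 steps in knockouts 1 to 4 and 15, 26, 37, 12 and 23 in controls 1 to 5. A J share of a few percent therefore rested on 1 step in most libraries.

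**Figure D5:**
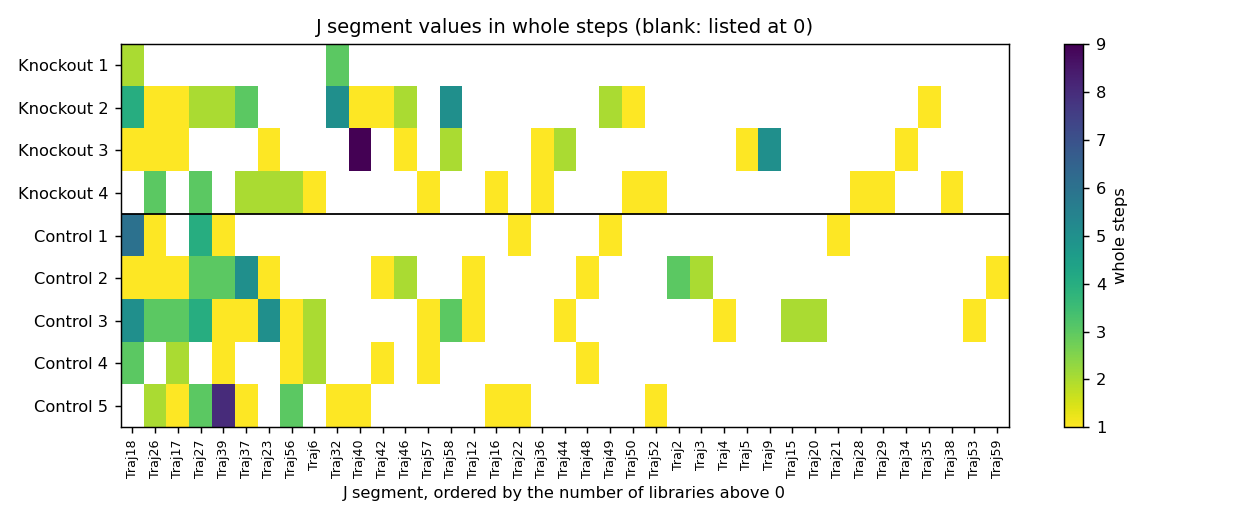
J segments above 0 in at least 1 library (columns, from those in most libraries to those in fewest) against library (rows, knockout above the line), coloured by the number of whole steps, from 1 to 9. Most filled cells are at 1 or 2 steps, knockout 1 holds only Traj18 and Traj32, and no column is filled in all 9 libraries.

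Most libraries also had a leading J segment of their own. In the knockout group these were Traj32 with 60% of the J total in knockout 1, Traj58 with 15.4% in knockout 2, Traj40 with 33.1% in knockout 3 and Traj27 with 17.3% in knockout 4. In the controls they were Traj27 with 32.8% in control 1, Traj37 with 22.1% in control 2, Traj23 with 15.2% in control 3, Traj18 with 20.4% in control 4 and Traj39 with 31.5% in control 5. By share, only Traj27 led more than 1 library. The order in steps could differ: in control 1, Traj18 was at 6 steps and Traj27 at 4. In knockout 2, Traj58 and Traj32 were both at 5 steps, and in knockout 4, Traj27 and Traj26 were both at 3. Traj23 and Traj18 were both at 5 steps in control 3. In control 4, Traj18 was at 3 steps and Traj6 and Traj17 at 2 each. J evenness was 0.164, 0.606, 0.496 and 0.603 in the knockout libraries and 0.418, 0.591, 0.642, 0.490 and 0.508 in the controls, with overlapping groups.

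J usage, as listed, was shared less between libraries than V usage. It rested on 2 to 17 J rows above 0 per library, against 78 to 101 V rows. The part of this sparseness in the overlap was not tested. Pairs overlapped by 0% to 26.3% within the knockout group, where knockouts 1 and 4 had no J row in common, by 21.1% to 37.7% within the control group and by 2.72% to 48.0% between the groups. By position, J rows numbered 20 to 39 held 60%, 45.6%, 16.0% and 71.3% in the knockout libraries and 63.7%, 55.7%, 50.2%, 8.58% and 71.8% in the controls. Low numbers lie nearest Trac, and no order of the groups was seen in this middle stretch.

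Traj39 (chr14:54179962-54180024) had the smallest unadjusted p of all segments with 9 libraries. It was listed at 0, 81.8, 0 and 0 TPM in knockouts 1 to 4, and at 20.6, 141, 41.7, 64.2 and 357 TPM in controls 1 to 5. It was above 0 in 1 of 4 knockout libraries and in 5 of 5 controls. In steps, controls 1, 3 and 4 were at 1 step each, control 2 at 3 and control 5 at 8, with knockout 2 at 2. Controls 1, 3 and 4 thus differed by 1 step from the knockout libraries listed at 0, while controls 2 and 5 held the larger values. All J values of knockout 1 came to 5 steps, a count as uncertain as the step of that library. The log2 difference was -4.71 (SE 1.33, limma adjusted p 0.595) with all libraries and -5.18 (SE 1.43, limma adjusted p 0.185) without control 1. Leaving out knockout 2 as well as control 1 took Traj39 to a limma adjusted p of 0.0293, the only one of the settings tried in which a segment was called.

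Traj17 (chr14:54201775-54201837) did not overlap between the knockout libraries and controls 2 to 5. It was listed at 0, 40.9, 38.5 and 0 TPM in the knockout libraries and at 0, 47.0, 125, 128 and 44.6 TPM in the controls. In steps, the knockout values above 0 were 1 step each and those of controls 2 and 5 were also 1 step each. Without control 1 the log2 difference was -3.60 (SE 1.32), with a limma adjusted p of 0.296. The exact two-sided permutation p was 0.0286, the smallest possible for those 8 libraries. With all 9 libraries the groups overlapped and the log2 difference was -2.345 (SE 1.63). The limma adjusted p was then 0.745 and the exact two-sided permutation p 0.19.

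The invariant natural killer T cell chain was low on its V side. Trav11 and Trav11d were each listed at 2.40, 6.36, 1.52 and 5.20 TPM in the knockout libraries and at 0, 2.05, 3.76, 5.19 and 3.41 TPM in the controls. Traj18 was above 0 in 7 of the 9 libraries, at 141, 130, 30.6 and 0 TPM in the knockout libraries and 99.2, 37.4, 166, 153 and 0 TPM in the controls. Groups overlapped for both segments, and Traj18 can also be joined to other V segments.

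Genes that work with the segments did not pass the test either. Of 9 genes of the receptor complex (Trac, Trbc1, Trbc2, Trdc, Cd3d, Cd3e, Cd3g, Cd247 and Cd4), all were tested and 0 were called in either direction by limma in either fit, where 0.0174% and 0.0262% of all genes were called. Without control 1, 8 of the 9 differences were negative. Cd3g, a signalling chain of the complex, was 1066 to 1193 TPM in the knockout libraries and 1348 to 1568 TPM in controls 2 to 5. These did not overlap, as for 7.02% of all genes without control 1, and the limma adjusted p was 0.117. In control 1, Cd3g was 580 TPM. The median log2 difference of the 9 genes was 0.28 with all libraries and -0.19 without control 1. Of 10 genes of the rearrangement machinery, which cuts and joins the segments, 7 were tested and 0 called, and Rag1, Rag2 and Dntt, the enzymes specific to developing lymphocytes, did not reach the filter on low values.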

How the data were processed

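RNA of CD4+ T cells sorted from the colon was measured in 9 libraries, 4 knockout and 5 control, grouped by the titles in the labels. The deposited table holds TPM values, made by the authors from polyadenylated RNA. Trimmomatic 0.32, Bowtie2 2.2.9, RSEM 1.2.31 and GRCm38 are named in the submitters' processing notes, without settings. The depth of the libraries is unknown, since TPM does not carry it, and no counting interval is given. How reads shared by near-identical V copies were assigned is not given in the sources used here.

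Shares, evenness, effective number and pair overlap were computed per library in Python 3.11.15 and described without a test. Single segments were tested with limma 3.58.1 in R 4.3.3 (lmFit, eBayes with trend, two-sided) on log2(TPM + 1), fitted over all genes at 1 TPM or more in at least 4 libraries, with Benjamini-Hochberg adjustment over all of them and a threshold of 0.05. The scale understates changes of low rows. Exact permutation tests over libraries reach 0.0159 at the smallest for 4 against 5 libraries. Sequences came from GENCODE M21 transcripts, compared with edlib by edit distance. J reference lengths came from RefSeq.

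Named segments are the 10 with the highest mean share in each class, those leading a library, those called, the 4 smallest p in each fit, the invariant chain segments and up to 4 peaks of a single library per class, 34 in all. The members and lists were chosen with earlier results of these data known, and the copy grouping after seeing its values. Alternatives were other pseudocounts, filters and scaling, a replicate block, summing of families or identical copies, and leaving out each library. The fit was tested on simulated data with known changes.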

Additional observations from a re-analysis of the deposited data

Results flagged for a closer look

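Within each group, a library was marked when its gap to the nearest other library was large against the range of the group (Dixon's 95% limit). Of 84 groups examined, 24 were marked. Chance marks about 1 group in 20, but many of these segments were named for leading a library or peaking in 1, so the number of marks cannot be read against that share, and a segment listed at 0 in all libraries of a group but 1 is always marked.

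Among the totals, the V total of knockout 2, 1775 TPM, was above the other knockout libraries, and that of control 1, 380 TPM, was below the other controls. The J total of knockout 1, 353 TPM, was below the other knockout libraries.

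Among V segments, the high libraries were Trav14-1 in control 5 at 447.6 TPM, Trav13-1 in control 2 at 141 TPM, Trav9-4 in control 3 at 256 TPM, Trav3d-3 and Trav3n-3 in knockout 4 at 136 TPM each, and Trav8-2 in knockout 2 at 86.5 TPM. Trav9d-1 in control 4 at 83.9 TPM, Trav13n-1 in knockout 3 at 28.3 TPM and Trav12n-2 in knockout 2 at 1.70 TPM were also high in their groups. Trav13n-3 was marked in knockout 2 at 28.7 TPM and in control 3 at 34.8 TPM. Trav1 in knockout 3, at 3.22 TPM, was low.

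Among J segments, the high libraries were Traj39 in knockout 2 at 81.8 TPM, Traj40 in knockout 3 at 409 TPM and in control 5 at 52.7 TPM, and Traj9 in knockout 3 at 299.6 TPM. Traj56 in knockout 4 at 99.1 TPM, Traj37 in control 2 at 303 TPM and Traj23 in control 3 at 268 TPM were high too. The remaining marks were Traj32 in control 5 at 35.5 TPM and Traj58 in control 3 at 125 TPM. For Traj39, Traj9, Traj56, Traj32 and Traj58, and for Traj40 in control 5, the other libraries of the group were listed at 0.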

How the results depend on the processing

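No segment was called with all 9 libraries under any alternative run (pseudocounts of 0.1 and 5, no filter, a filter of 5 TPM, median-of-ratios scaling, the replicate block and each library left out). Without control 1 the count was 0 under each of these, with a range of 0 to 1 when a further library was left out. The 1 was Traj39 without knockout 2 (limma adjusted p 0.0293). Knockout 2 was the only knockout library with Traj39 above 0, so the knockout values left were all 0. The part of this in the call was not tested. With the replicate block as a factor, 0 segments were called in either fit, and 18 and 22 segments had an unadjusted p under 0.05 with 9 and 8 libraries. Deviations of same-numbered libraries correlated at -0.14 to -0.02 and no library was closest to its own number, so the numbers were not taken to pair the samples. The log2 differences of the 8 segments followed kept their direction under every alternative run. The difference in V evenness (knockout minus control, 0.04) ranged from 0.03 to 0.06, and that in n copy share (9.78 percentage points) from 8.02 to 12.2, with a library left out; with families summed the evenness difference was 0.01, and with identical copies summed 0.03. The largest V share differed by -7.49 percentage points, -9.46 to -4.83 with a library left out, -4.77 with identical copies summed and -2.59 with families summed. With a library left out, J evenness differed by -0.11 to 0.04, the largest J share by -2.47 to 12.4 percentage points, and the log2 V and J totals by -0.22 to 0.33 and -0.39 to 0.43. Median-of-ratios scaling turned the difference in V total from 0.20 to -0.42 and moved that in J total from -0.03 to -0.65, and as ratios to Trac they were -0.09 and -0.32. Summed by family, the median overlap of V usage between groups was 78.0% instead of 55.9%, since fewer classes are compared. The unknown depth limits J segments most.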
